A study of Mus musculus with 106 samples.

Results

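The genes described here are the 45 mouse genes whose symbols belong to the receptor subunits for GABA and glutamate. They were picked by symbol: the GABA-A subunits (Gabra, Gabrb, Gabrg, Gabrd, Gabre, Gabrp, Gabrq and the rho genes Gabrr), the GABA-B receptors Gabbr1 and Gabbr2, the AMPA (Gria), NMDA (Grin) and kainate (Grik) subunits, and the metabotropic glutamate receptors (Grm), with antisense rows left out. The group itself was chosen with earlier results of these data known. All 45 had a row in each table used, out of 21647 rows in the table that holds the brain and hypothalamus of the 10 °C experiment, 23393 rows in the table that holds the brain of the 34 °C experiment and 23420 rows in the spinal cord table. They comprise 6 alpha, 3 beta, 7 gamma, delta, epsilon, pi and theta and 3 rho GABA-A subunits, 2 GABA-B receptors, 4 AMPA, 7 NMDA and 5 kainate subunits, and 8 metabotropic glutamate receptors.

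GABA-A receptors are chloride channels of the inhibitory synapse, usually built from alpha, beta and gamma subunits, while delta, theta and epsilon can take the place of gamma or beta and rho subunits form channels of their own. Gabbr1 and Gabbr2 pair into the GABA-B receptor, which signals through G proteins. AMPA receptors carry most fast excitatory current, NMDA receptors need Grin1 together with a Grin2 or Grin3 subunit and admit calcium, kainate receptors adjust release and excitability, and the metabotropic receptors act through G proteins in 3 groups. In the hypothalamus, which holds the circuits for body temperature, both transmitters act on the neurons that control heat production.

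The mice were wild-type C57BL/6J males that arrived at 8 weeks of age. For cold exposure the temperature was lowered to 18 °C for 5 days and 14 °C for 5 days before 2 weeks at 10 °C, and for warm exposure mice were kept at 34 °C for 4 weeks, each experiment with its own controls at 22 °C. The labels give an age of 11 weeks for the cold experiment and of 12 weeks for the warm one, and write the strain as C57BL/6 in the first and C57BL/6J in the second. RNA was sequenced from brain (2 libraries used at 22 °C and 3 at 10 °C), hypothalamus (3 and 3), spinal cord (5 and 5) and, in the 34 °C experiment, brain without hypothalamus (3 at 22 °C and 3 at 34 °C), with 2 mice pooled in each brain or hypothalamus library and 1 mouse in each spinal cord library. All values are read counts of bulk tissue, shown as normalised CPM (read counts scaled to a common library size) within a comparison, so that fewer cells of a type and less RNA per cell cannot be told apart.

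Assigned reads per library ranged from 14038161 to 22049093 in the brain and from 13525354 to 21218147 in the hypothalamus of the 10 °C experiment, from 21953207 to 29029283 in the spinal cord and from 48996910 to 62880248 in the brain of the 34 °C experiment. One 22 °C brain library of the 10 °C experiment, replicate 2, was left out. Its mean Pearson correlation with the other brain libraries was 0.863, against 0.968 to 0.969 for the other 5, and all 38 receptor genes tested in the brain were lower in it than in any of those 5. For all 13976 genes tested, 83.9% lay outside the range of the other 5 libraries, and the median log2 difference from the other 22 °C libraries was -0.03, against -0.66 for the receptor genes. Marker genes fitted the labels of hypothalamus and brain: 11 hypothalamic markers summed to 742 to 787 CPM in the hypothalamus and 29.8 to 43.4 CPM in the brain. In the spinal cord 7 cord markers summed to 295 to 349 CPM. Of the hypothalamic list only Nkx2-1 is given there, which was at 0, and the sum of that list in the cord is not given.

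Among the receptor genes that differ between tissues, as described below, 5 are shown by their promoters: Gabre and Gabrq, which lie in a cluster of 3 genes on chromosome X with Gabra3, Gabra6 of the chromosome 11 cluster, and the neighbours Gabra4 and Gabrb1 of the chromosome 5 cluster. Gabrd and Grm4 also differed by large folds but had no entry in the promoter list used. The part of the promoters in these differences was not tested. Each sequence runs from 250 bases before to 50 bases after the start of transcription in RefSeq (build GRCm38.p6), 5′ to 3′ on the strand of the gene, and capitals mark the GC box GGGCGG or its reverse complement CCGCCC. They lie at chrX:72274672-72274971 on the minus strand for Gabre, chrX:72824928-72825227 on the plus strand for Gabrq, chr11:42321023-42321322 on the minus strand for Gabra6, chr5:71658259-71658558 on the minus strand for Gabra4 and chr5:71657671-71657970 on the plus strand for Gabrb1, for which RefSeq holds 2 entries and 1 is shown.
Gabre: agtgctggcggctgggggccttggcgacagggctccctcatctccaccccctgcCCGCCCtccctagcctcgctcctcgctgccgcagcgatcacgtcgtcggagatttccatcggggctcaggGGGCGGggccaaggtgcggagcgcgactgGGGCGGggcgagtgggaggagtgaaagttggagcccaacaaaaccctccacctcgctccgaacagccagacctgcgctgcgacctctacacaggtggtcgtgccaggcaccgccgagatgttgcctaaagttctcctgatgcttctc
Gabrq: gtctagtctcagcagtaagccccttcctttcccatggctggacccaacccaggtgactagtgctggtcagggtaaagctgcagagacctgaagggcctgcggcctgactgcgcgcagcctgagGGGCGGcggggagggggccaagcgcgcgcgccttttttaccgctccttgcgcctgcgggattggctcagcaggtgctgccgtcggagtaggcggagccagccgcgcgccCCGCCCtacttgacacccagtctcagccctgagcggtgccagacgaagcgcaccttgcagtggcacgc
Gabra6: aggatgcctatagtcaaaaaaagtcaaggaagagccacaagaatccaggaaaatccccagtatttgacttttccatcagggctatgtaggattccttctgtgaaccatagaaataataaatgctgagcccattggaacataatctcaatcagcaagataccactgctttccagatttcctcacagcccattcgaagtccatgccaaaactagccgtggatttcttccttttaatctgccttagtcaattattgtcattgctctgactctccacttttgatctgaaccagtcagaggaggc
Gabra4: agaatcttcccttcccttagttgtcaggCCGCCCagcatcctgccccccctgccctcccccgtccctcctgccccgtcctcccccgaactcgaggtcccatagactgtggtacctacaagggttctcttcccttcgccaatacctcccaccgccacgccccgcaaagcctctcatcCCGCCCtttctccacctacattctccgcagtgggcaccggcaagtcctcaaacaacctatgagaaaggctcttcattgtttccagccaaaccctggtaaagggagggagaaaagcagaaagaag
Gabrb1: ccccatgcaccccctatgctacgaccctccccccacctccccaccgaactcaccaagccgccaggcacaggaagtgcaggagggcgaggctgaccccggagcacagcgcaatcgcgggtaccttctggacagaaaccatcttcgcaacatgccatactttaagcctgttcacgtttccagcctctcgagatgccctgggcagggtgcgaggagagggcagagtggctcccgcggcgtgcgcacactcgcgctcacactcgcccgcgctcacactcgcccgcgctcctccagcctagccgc

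The windows of Gabre and Gabrq held 3 and 2 GC boxes and 24 and 23 CG dinucleotides. The window of Gabra6 held no GC box and 2 CG dinucleotides, that of Gabra4 held 2 GC boxes and 12 CG dinucleotides, and that of Gabrb1 held no GC box and 25 CG dinucleotides. The GC box was found on either strand in 35.7% of all 32851 promoters of the RefSeq table and in 19 of the 39 promoters of the 32 receptor genes that it lists, and the median number of CG dinucleotides was 7 in all promoters and 12 in those of the receptor genes. The TATA box TATAAA, present in 13.6% of all promoters, and the cyclic AMP response element TGACGTCA, present in 1.79%, were in none of the 5 windows on either strand. The starts of Gabra4 and Gabrb1 were 387 bases apart on opposite strands, and in the GENCODE annotation their exons share 46 bases, whose reads could be told apart only with the strand.

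Housing at 10 °C was compared with 22 °C to ask which receptor genes respond to cold in the central nervous system. None did at the limits that the study used (a fold above 1.5 with an unadjusted p up to 0.05) in any of the 3 tissues, by edgeR's quasi-likelihood test. In the brain this was 0 of 38 receptor genes tested, where 0.801% of all genes passed, in the hypothalamus 0 of 39, where 0.578% passed, and in the spinal cord 0 of 40, where 0.271% passed. By Benjamini-Hochberg adjusted p under 0.05 there were 0 receptor genes as well (0.122%, 0% and 0.00695% of all genes), the smallest edgeR adjusted p being 0.37 in the brain, 0.76 in the hypothalamus and 0.78 in the spinal cord. The edgeR exact test and DESeq2 also gave 0 in each tissue, and with an unadjusted p up to 0.05 alone there were 3 receptor genes in the brain, 1 in the hypothalamus and 0 in the spinal cord, against 8.85%, 6.18% and 5.79% of all genes. The exact test gave 3, 1 and 0 at that limit and DESeq2 4, 1 and 0.

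**Figure D1:**
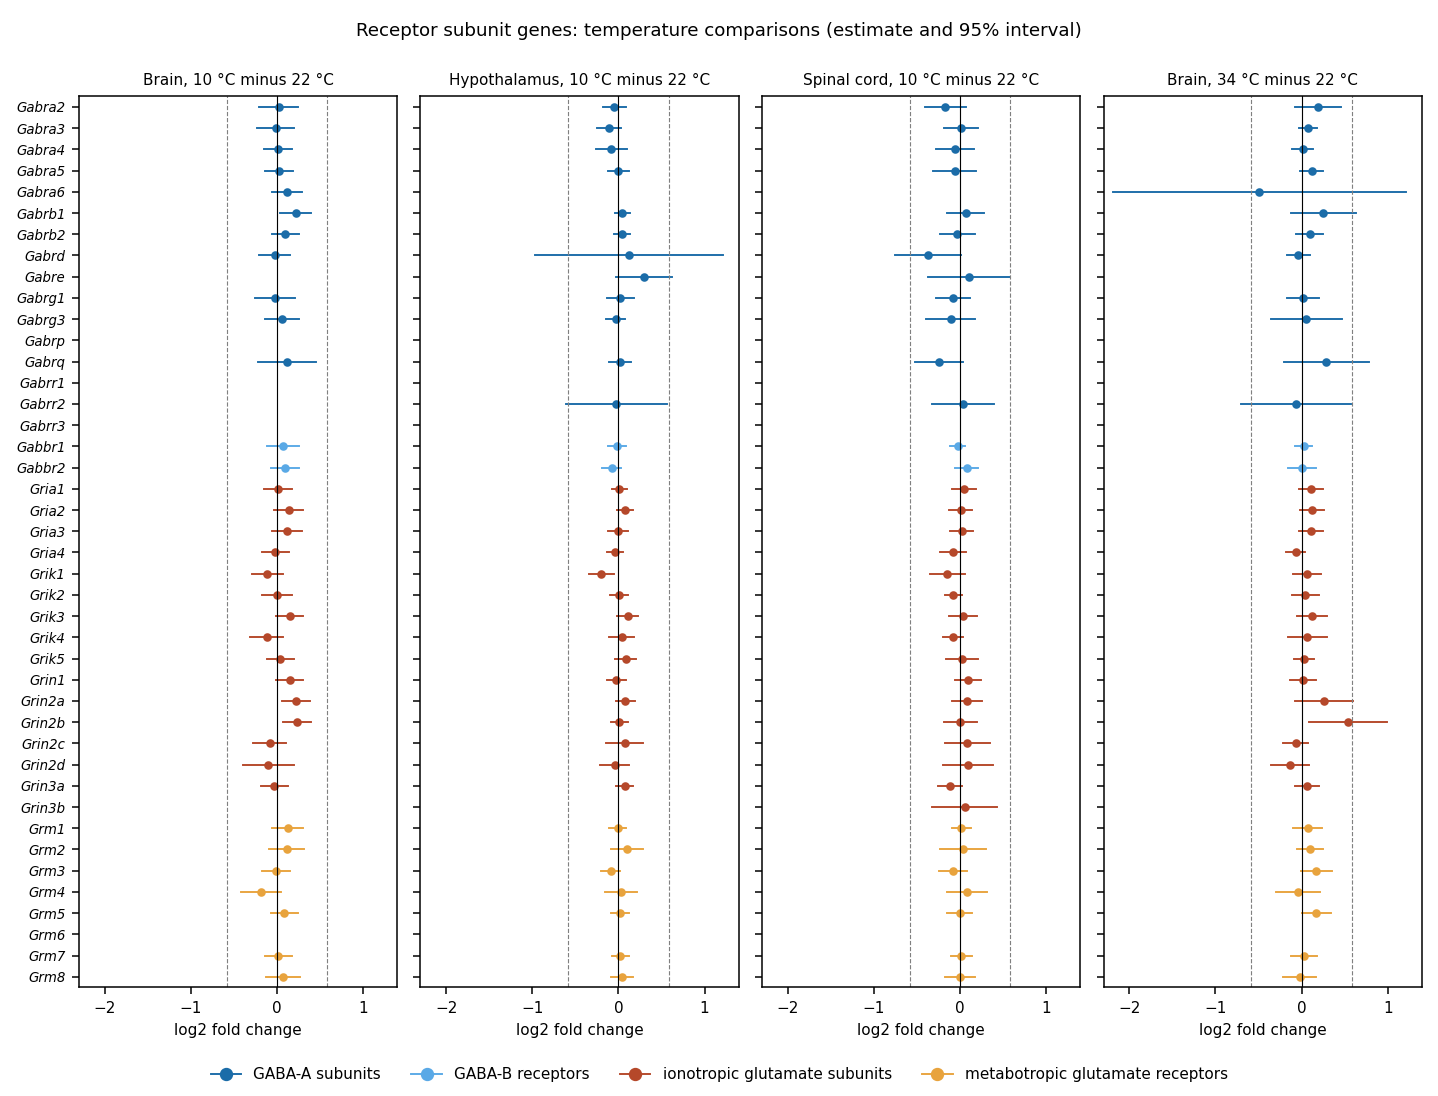
Log2 fold change of each tested receptor gene named here between 10 °C and 22 °C in brain, hypothalamus and spinal cord, and between 34 °C and 22 °C in the brain of the 34 °C experiment. Points are edgeR estimates with 95% confidence intervals, and dashed lines mark 1.5-fold. No interval of the genes plotted crosses a dashed line in the brain at 10 °C, while those of 3 genes do in the hypothalamus, of 1 in the spinal cord and of 6 at 34 °C.

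The intervals show which sizes of response remained possible. In the brain, the 95% confidence interval of the fold change lay within 1.5-fold in both directions for 38 of 38 receptor genes, against 85.9% of all genes tested. It did so for 36 of 39 in the hypothalamus (86.8% of all genes), the other 3 being Gabrd, Gabre and Gabrr2, and for 39 of 40 in the spinal cord (90.8%), the exception being Gabrd. At 34 °C it did so for 33 of 39 (84.6%, against 89.6% of all genes), the other 6 being Gabra6, Gabrb1, Gabrq, Gabrr2, Grin2a and Grin2b. The median log2 fold change of the receptor genes at 10 °C was 0.06 in the brain, 0.01 in the hypothalamus and 0.0062 in the spinal cord, and that of all genes was -0.01, 0.0039 and 0.0002. At 34 °C the medians were 0.06 and 0.0003. Estimates lay above 0 for 27 of 38 receptor genes in the brain at 10 °C (47.95% of all genes) and 30 of 39 at 34 °C (50.16%). In the hypothalamus this was 22 of 39 (51.64%) and in the spinal cord 22 of 40 (50.08%), which was not tested.

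In the brain at 10 °C, 3 genes had an unadjusted p up to 0.05 and all 3 were estimated higher, where 5.03% of all genes were higher at that limit. Grin2b, the NMDA subunit of slow currents, was at 619 and 534 CPM at 22 °C and at 676, 679 and 678 CPM at 10 °C. The groups did not overlap, and the 22 °C libraries were farther apart than the 10 °C libraries. The log2 fold change was 0.23 (SE 0.08, edgeR adjusted p = 0.37).

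Grin2a, the NMDA subunit that gains weight in the adult forebrain, was at 259 and 227 CPM at 22 °C and at 280, 278 and 289 CPM at 10 °C, again without overlap (log2 fold change 0.22, edgeR adjusted p = 0.40). Gabrb1 was at 171 and 154 CPM against 178, 179 and 209 CPM (0.22, edgeR adjusted p = 0.47). All 3 estimates depend on 1 library. Without the 22 °C replicate 3, the lower of the pair in each gene, the log2 fold changes were 0.13 for Grin2b and Grin2a and 0.14 for Gabrb1. This left 1 library at 22 °C, and leaving out the lower of a pair must shrink a positive estimate. Among all tested receptor genes, 9 of 38 had groups that did not overlap, where 24.9% of all genes did not overlap. Of these, 7 were higher at 10 °C (Gabrb1, Gabrb2, Grik3, Grin1, Grin2a, Grin2b and Grm5) and 2 lower (Grik1 and Grik4).

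Values of Gabbr1 and Gria1, among the main receptor genes that missed this limit in the brain, were as follows. Gabbr1 was at 1010 and 1026 CPM at 22 °C and at 1165, 1106 and 933 CPM at 10 °C (log2 fold change 0.07, 95% confidence interval -0.11 to 0.25), and Gria1 at 445 and 402 against 454, 406 and 422 CPM (0.01, -0.15 to 0.18). In each of these the groups overlapped, whereas the main genes Gabrb2, Grin1 and Grm5 were higher in every 10 °C library. By smallest p, Grik3 (0.15), Grin1 (0.15) and Gria2 (0.14 on the log2 scale) came after the 3 genes above, with edgeR adjusted p from 0.57 to 0.64. The 7 receptor genes not tested in the brain for low counts were Gabre, Gabrp, Gabrr1, Gabrr2, Gabrr3, Grin3b and Grm6. Gabrp, Gabrr1, Gabrr3 and Grm6 were not tested in any tissue, Gabra6 not in hypothalamus and spinal cord, Grin3b not in the hypothalamus, and Gabre and Grin3b not in the brain at 34 °C. Of the marker lists, the summed oligodendrocyte markers (6 genes) were lower at 10 °C in every library, at 6243 to 6687 against 7441 to 7981 CPM, and the summed blood markers (5 genes) higher, at 259 to 366 against 203 to 244 CPM, and their part in the receptor values was not tested.

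In the hypothalamus, Grik1, a kainate subunit, was at 65.8, 57.0 and 59.2 CPM at 22 °C and at 49.9, 55.3 and 53.4 CPM at 10 °C. The groups did not overlap, with all 10 °C libraries lower, and the log2 fold change was -0.20 (SE 0.07, edgeR adjusted p = 0.76). It was the single receptor gene with an unadjusted p up to 0.05, where 2.67% of all genes were lower at that limit. Gabre, the epsilon subunit, was at 11.2, 12.6 and 8.89 CPM against 11.02, 15.8 and 13.1 CPM, overlapping between the groups (0.30, edgeR adjusted p = 0.80). For 4 of 39 genes the groups did not overlap, where 11.9% of all genes did not: Gabrb2 and Grin2a were higher and Grik1 and Grm3 lower at 10 °C. Gabrq, Gabrb1 and Gabrg3 had log2 fold changes of 0.02, 0.04 and -0.03, each with overlapping groups, and Grik3 (0.11), Gabra3 (-0.11) and Grm3 (-0.09) were among the genes with the next smallest p, with edgeR adjusted p from 0.80 to 0.84.

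Gabrd, the delta subunit of receptors outside the synapse, could hardly be judged there. It was at 1.11, 4.92 and 0.993 CPM at 22 °C and at 3.26, 1.83 and 2.38 CPM at 10 °C, and 1 library at 22 °C (replicate 2) was higher than all others. Its log2 fold change was 0.12 with a confidence interval from -0.97 to 1.21, and without that library it was 1.24, past the limits of the study. As in the brain, oligodendrocyte markers were lower in every 10 °C library (4678 to 4732 against 5253 to 5667 CPM) and blood markers higher (201 to 208 against 115 to 184 CPM), and their part was not tested.

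In the spinal cord no receptor gene had groups that did not overlap (0 of 40, where 1.61% of all genes did not). The largest estimate was that of Gabrd, at 1.39, 1.15, 1.06, 1.01 and 1.27 CPM at 22 °C and 0.891, 0.719, 1.197, 0.747 and 0.965 CPM at 10 °C. Of the 5 libraries at 10 °C, 4 were below all at 22 °C, with a log2 fold change of -0.37 (SE 0.18, edgeR adjusted p = 0.78). Gabrq followed, at 5.87, 5.96, 4.75, 5.43 and 6.97 CPM against 4.68, 4.83, 4.75, 4.06 and 6.11 CPM (-0.24, edgeR adjusted p = 0.78). The gene Gabra6 had no read in any of the 10 libraries, which allows up to 0.103 to 0.137 CPM per library. The other named genes were Grin3a (-0.11), Grik2 (-0.08), Grik1 (-0.15) and Gabra2 (-0.17 on the log2 scale), none past the limits. The 22 °C replicate 1 library held 32.8 CPM of dorsal root ganglion markers in sum, against 2.92 to 6.36 CPM in the other 9, and thalamic markers were lower in every 10 °C library (94.6 to 119 against 121 to 132 CPM), and their part was not tested.

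Whether cold acted differently on the hypothalamus and on the brain was tested as an interaction. No receptor gene passed at an adjusted p under 0.05 (0 of 40, with 0.00693% of all genes passing, edgeR), DESeq2 gave 0 as well, and the smallest adjusted p was 0.96. With an unadjusted p up to 0.05 there were 2 genes (4.73% of all genes, and 3 receptor genes by DESeq2), Grin2b with a log2 difference of -0.24 and Gabra6 with 1.81, the latter resting on 8 reads at 22 °C and 27 reads at 10 °C in the hypothalamus. Grin1, the subunit that every NMDA receptor holds, came next with -0.19 (edgeR adjusted p = 0.96).

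At 34 °C, in the brain without hypothalamus, no receptor gene passed the limits of the study either (0 of 39, where 0.193% of all genes passed, edgeR's quasi-likelihood test). The exact test and DESeq2 also gave 0, 2 genes had an unadjusted p up to 0.05, both higher (2.64% of all genes, 1.22% higher; the exact test and DESeq2 gave 3 each), and the smallest adjusted p was 0.9997. Grin2b was at 63.7, 75.1 and 86.2 CPM at 22 °C and at 130.0, 129.6 and 67.6 CPM at 34 °C. Replicates 1 and 2 at 34 °C were well above all controls and replicate 3 was among them. The log2 fold change was 0.54 (SE 0.20, edgeR adjusted p = 0.9997), and 0.79 without replicate 3 at 34 °C (edgeR adjusted p = 0.18).

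The groups did not overlap for 2 of 39 receptor genes, where 6.6% of all genes did not. Gabra3 was one of them, at 151, 149 and 147 CPM at 22 °C and at 160.4, 155 and 153 CPM at 34 °C, all higher (log2 fold change 0.07, edgeR adjusted p = 0.9997). Gabra6, which is known from cerebellar granule cells, was at 11.7, 17.4 and 0.449 CPM at 22 °C and at 7.88, 10.1 and 2.89 CPM at 34 °C, so that 1 library in each group was far below the others. The 7 granule cell markers summed to 170.5, 215.1 and 72.9 CPM and to 132.8, 166.5 and 86.6 CPM in the same libraries, lowest in the same library of each group, and their part was not tested. Thalamic markers (6 genes) were lower in every 34 °C library, at 127 to 146 against 158 to 195 CPM, and this was not tested either. Grm5 (0.17), Grm3 (0.17), Gabra5 (0.12) and Gria2 (0.12 on the log2 scale) came next by p, each with overlapping groups.

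The hypothalamus and the brain were compared at 22 °C and again at 10 °C, each in libraries of the same experiment. The labels do not say whether this brain still held its hypothalamus. The GABA-A subunits Gabre, Gabrq, Gabrg3, Gabrb1 and Gabrg1 were higher in the hypothalamus by the largest folds, and the GABA-A subunits Gabra6, Gabrd and Gabra4 and the metabotropic receptor Grm4 were lower by the largest folds. At 22 °C, 33 of 40 receptor genes had an adjusted p under 0.05 (edgeR), 16 higher and 17 lower in the hypothalamus, where 70% of all genes passed, 36% higher and 34% lower. With the left-out brain library kept, this count at an adjusted p under 0.05 fell from 33 to 17 of 40, 9 higher and 8 lower, and that of all genes to 34.6%, 17.8% higher and 16.8% lower. At 10 °C it was 37 of 40, 16 higher and 21 lower, where 75.1% of all genes passed. With a fold above 1.5 and an unadjusted p up to 0.05 as the limits it was 19 and 18 of 40, against 40.5% and 39.7% of all genes. For 34 of 40 receptor genes at 22 °C and 35 of 40 at 10 °C the tissues did not overlap, where 79.4% and 77.2% of all genes did not. Gabrp, Gabrr1, Gabrr3, Grin3b and Grm6 were not tested.

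**Figure D2:**
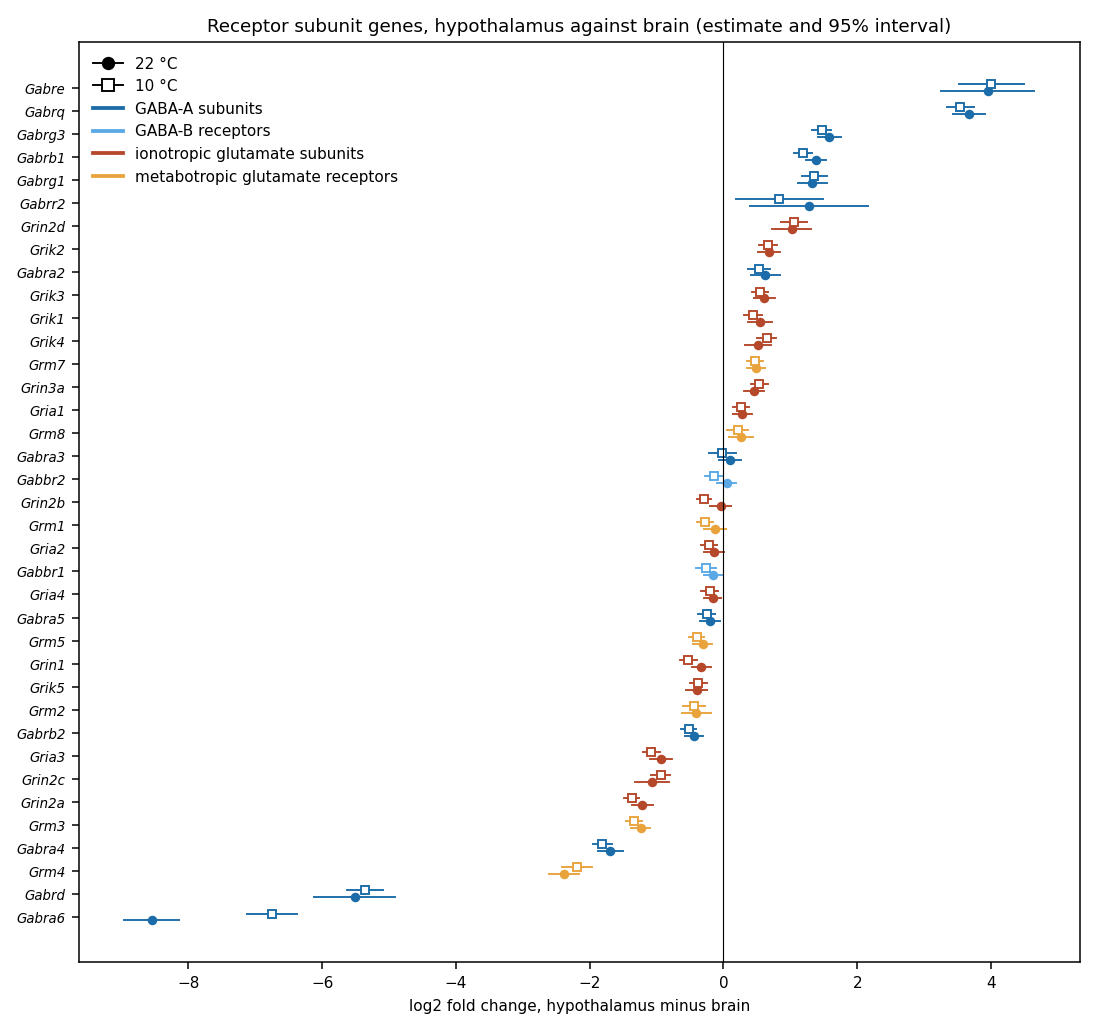
Log2 fold change of the receptor genes named here in the hypothalamus relative to the brain, at 22 °C (filled circles) and at 10 °C (open squares), with 95% confidence intervals. Gabre and Gabrq stand at the top with 3.95 and 3.67 at 22 °C and Gabra6 and Gabrd at the bottom with -8.55 and -5.52, and the symbols of both temperatures lie close together for most genes.

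Gabrq, the theta subunit, was at 10.2 and 7.996 CPM in the brain and at 121, 116 and 106 CPM in the hypothalamus at 22 °C. The hypothalamus libraries were all above the brain libraries by a wide margin, with a log2 fold change of 3.67 (SE 0.11, edgeR adjusted p = 4.5e-12) and of 3.54 at 10 °C. Gabre, its neighbour on chromosome X, was at 1.12 and 0.329 CPM in the brain and at 10.9, 12.2 and 8.59 CPM in the hypothalamus (3.95, SE 0.32). The brain value of Gabre rests on 21 reads in 2 libraries. Gabra3, the third gene of that cluster, was at 94.8 and 84.5 against 93.4, 93.9 and 100.4 CPM, which overlapped (0.10, 95% confidence interval -0.06 to 0.26).

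Gabrg3 was at 37.9 and 34.6 CPM in the brain and at 106, 115 and 104 CPM in the hypothalamus (log2 fold change 1.58), and Gabrg1, a gamma subunit also known from glia, at 48.1 and 55.7 against 116, 146 and 131 CPM (1.33). Both were higher in every hypothalamus library. Gabrr2, a rho subunit, was low throughout, at 0.374 and 0.712 against 1.397, 1.78 and 1.05 CPM (1.28, edgeR adjusted p = 0.012).

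**Figure D3:**
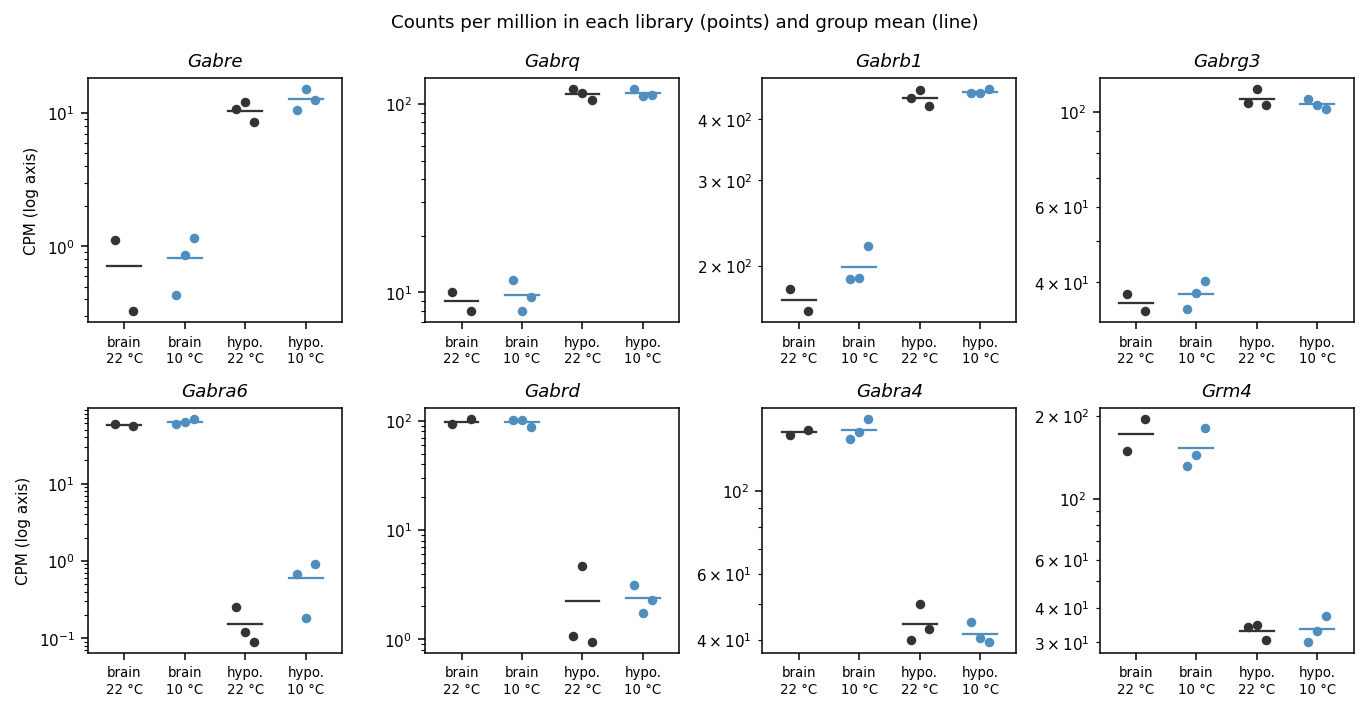
Normalised CPM (log axis) of 8 receptor genes in each of the 11 brain and hypothalamus libraries of the 10 °C experiment, by tissue and temperature. For Gabrq, Gabre, Gabrg3 and Gabrb1 every hypothalamus library lies above every brain library and for Gabra6, Gabrd, Gabra4 and Grm4 below, while within a tissue the temperatures overlap for most genes.

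Gabra6 was at 60.1 and 56.8 CPM in the brain and at 0.254, 0.123 and 0.0914 CPM in the hypothalamus, where it had 8 reads in the 3 libraries together (log2 fold change -8.55, SE 0.19, edgeR adjusted p = 2.6e-13). Gabrd was at 94.95 and 104 CPM against 1.08, 4.78 and 0.960 CPM (-5.52, SE 0.28). Gabrd is known as a partner of Gabra6 in the cerebellum and of Gabra4 in the forebrain. Gabra4 was at 142 and 147 against 40.3, 50.5 and 43.1 CPM (-1.69), so that all 3 subunits were lower in every hypothalamus library.

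The neighbours Gabra4 and Gabrb1 differed in opposite directions. Gabrb1 was at 181 and 163 CPM in the brain and at 448, 468 and 430 CPM in the hypothalamus at 22 °C (log2 fold change 1.38, SE 0.07). All 4 genes of the chromosome 5 cluster passed the test at 22 °C, with Gabrg1, Gabra2 and Gabrb1 higher and Gabra4 lower, whereas Gabra6 and Gabrb2 of the chromosome 11 cluster were both lower. Gabrb2 was at 269 and 247 CPM in the brain and at 189.9, 190.1 and 189.7 CPM in the hypothalamus (-0.44).

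Marker lists also differed between the tissues. Those that follow were lower in the hypothalamus, whereas receptor genes differed in both directions. The 7 cortical and hippocampal markers summed to 877 to 946 CPM in the brain and to 11.1 to 12.2 CPM in the hypothalamus, the 7 granule cell markers to 420 to 448 and 153 to 175 CPM, and the 8 general neuron markers to 6961 to 7422 and 3703 to 3903 CPM, with no marker of these lists at 0. The cortical and hippocampal list holds Slc17a7, a glutamate pathway gene described below, which made up most of its sum in the brain. The part of these markers in the receptor differences was not tested.

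The log2 fold changes of the glutamate receptors at 22 °C ran from -2.38 (Grm4) to 1.02 (Grin2d). Of the AMPA subunits, Gria1 was higher in the hypothalamus (log2 fold change 0.28), Gria3 lower, at 108, 116 and 121 CPM against 236 and 206 CPM in the brain (-0.94), and Gria4 slightly lower (-0.16). Gria2, which keeps calcium out of AMPA channels, was at 799 and 710 against 659, 719 and 680 CPM. The groups overlapped, and it did not pass at 22 °C (-0.14, 95% confidence interval -0.29 to 0.01) but did at 10 °C (-0.22).

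Among the NMDA subunits, Grin2a was at 274 and 240 CPM in the brain and at 105, 113 and 114 CPM in the hypothalamus (log2 fold change -1.21), and Grin2c, also known from granule cells and astrocytes, at 60.5 and 75.5 against 32.8, 27.1 and 37.0 CPM (-1.07). Grin1 was lower (-0.33) and Grin3a higher (0.46). Grin2d was at 10.7 and 15.2 against 25.98, 25 and 28.6 CPM (1.02). Grin2b was at 655 and 567 against 603, 621 and 557 CPM. These overlapped at 22 °C (-0.04, 95% confidence interval -0.20 to 0.12), while at 10 °C Grin2b was lower in every hypothalamus library (-0.29, edgeR adjusted p = 7.1e-05), and the interaction between tissue and temperature did not pass (adjusted p = 0.96).

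Of the kainate subunits, Grik1, Grik2, Grik3 and Grik4 were higher in the hypothalamus, with log2 fold changes of 0.55, 0.68, 0.61 and 0.51 at 22 °C. Grik5, which does not form channels without other kainate subunits, was lower (-0.40). Grik2 was at 136 and 154 CPM in the brain and at 229, 246 and 223 CPM in the hypothalamus. No brain library reached the lowest hypothalamus library for the 4 genes that were higher.

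Of the metabotropic receptors, Grm4 was lower by the largest amount, at 151 and 196 CPM in the brain and at 34.4, 35.2 and 30.7 CPM in the hypothalamus (log2 fold change -2.38). Grm3, found on neurons and astrocytes, was at 159 and 168 against 71.3, 68.8 and 68.0 CPM (-1.24). Grm2 (-0.41) and Grm5 (-0.31) were lower too, and Grm7 (0.49) and Grm8 (0.26) higher. Of the GABA-B receptors, Gabbr1 was lower (-0.16) and Gabbr2 did not pass (0.05), and the direction for Gabbr1 turned to 0.04 when the left-out brain library was kept.

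Levels can be compared between genes only per length, so the counts were divided by exon length and each subunit was expressed as a share of its kind within a library. At 22 °C, the share of Gabra6 in the alpha subunit reads per kilobase was 13.6% ± 0.203 (SD, n = 2) in the brain and 0.0614% ± 0.0360 (n = 3) in the hypothalamus, and that of Gabra3 was 13.2% ± 0.743 and 23.7% ± 0.800. In the spinal cord Gabra3 held the largest share of the alpha subunits with 51.1% ± 0.692 (n = 5), followed by Gabra5 with 27.3% ± 0.785.

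**Figure D4:**
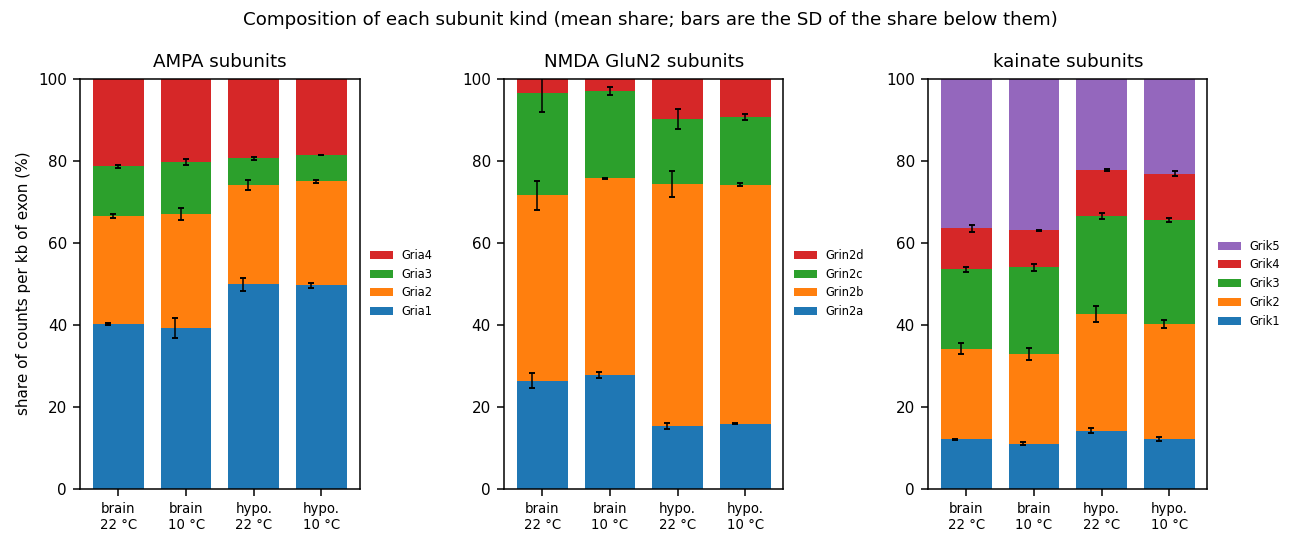
Share of each subunit in the reads per kilobase of its kind (AMPA, Grin2 and kainate subunits), in percent, as stacked means over the brain and hypothalamus libraries of each temperature, with error bars for the SD of the share below them. At 22 °C Grin2a takes 26.4% of the Grin2 subunits in the brain and 15.3% in the hypothalamus, and Grin2b 45.2% and 59.0%.

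Among the beta subunits, Gabrb1 held 12.8% ± 0.0899 in the brain and 29.7% ± 0.469 in the hypothalamus. Of the Grin2 subunits, Grin2b held 45.2% ± 3.59 in the brain and 59.0% ± 3.25 in the hypothalamus, while Grin2c and Grin2d held 47.7% ± 2.20 and 43.7% ± 2.59 in the spinal cord. The 22 °C brain of the 34 °C experiment, made with the kit of the spinal cord libraries, had 15.8% ± 2.22 (n = 3) of Grin2b, 67.3% ± 3.65 of Grin2c and 11.4% ± 1.05 of Grin2d, so the contrast of brain and spinal cord differs with the set of brain libraries. In the hypothalamus at 10 °C, Grin2b held 58.3% ± 0.361 of the Grin2 subunits, within the range of the 22 °C libraries. The share of Grik1 in the kainate subunits was lower in every 10 °C library than in any at 22 °C, with 12.1% ± 0.498 against 14.1% ± 0.592. That of Gabra6 in the alpha subunits was 0.248% ± 0.163, resting on the 27 reads given above. The same exon lengths were used for every set of libraries, and whether the reads were counted over the same exons in each set was not tested. No test was run on the shares.

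By CPM per kilobase of exon at 22 °C, Gabbr1 had the highest level of the 45 genes in each tissue, with 131 ± 1.48 (SD, n = 2) in the brain, 128 ± 6.36 (n = 3) in the hypothalamus and 80.1 ± 3.02 (n = 5) in the spinal cord. Among the genes named here, it was followed in the brain by Gria1 (70.0 ± 5.04), Grm3 (50.6 ± 1.96) and Gria2 (45.8 ± 3.86). In the hypothalamus Gria1 came next (93.0 ± 3.45), then Gria2 (45.5 ± 2.004) and Gabbr2 (45.2 ± 1.32), which did not differ beyond their spread. In the spinal cord Gabra3 (41.3 ± 1.5), Grin1 (39.0 ± 2.06), Gria4 (37.9 ± 2.09) and Gria1 (32.7 ± 2.08) followed. Gabrp, Gabrr3 and Grm6 were near or at 0 in each, with at most 5 reads summed over any temperature group of these 3 tissues.

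The spinal cord libraries were made with another kit and at another site than those of the brain and hypothalamus of the 10 °C experiment, and so was the brain of the 34 °C experiment. Both sets of 22 °C brains can be set side by side, although the kit, the site and the supplier of the mice all differed. The counts also came with Ensembl identifiers for the brain of the 10 °C experiment and with gene symbols for the 34 °C experiment and the spinal cord. Whether the same gene models were used for counting was not tested. These differences cannot be told apart, and the labels state the removal of the hypothalamus for the 34 °C experiment alone. Grin2a was at 230 to 261 CPM in the 10 °C experiment and at 16.6 to 21.1 CPM in the 34 °C experiment, 12.7 times lower, and Grin2b at 541 to 623 and 64.1 to 85.9 CPM. Gabrb1 was at 156 to 172 and 18.2 to 24.4 CPM, and Grm4 at 144 to 187 and 27.7 to 30.7 CPM. These ranges lie far apart.

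**Figure D5:**
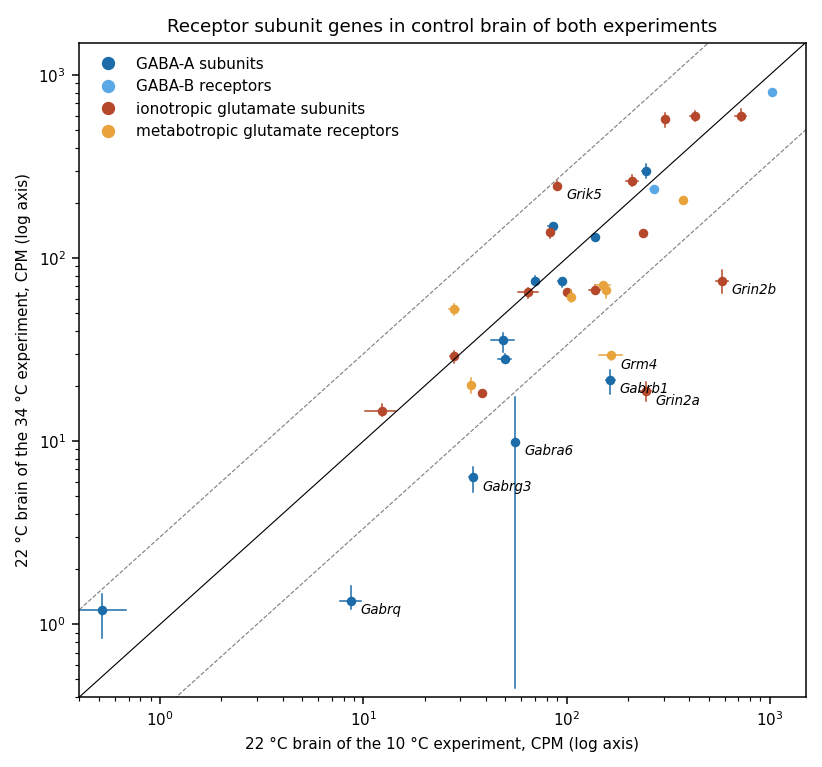
Mean CPM by library size of the receptor genes named here in the 22 °C brain libraries of both experiments, on log axes, with dashed lines at 3-fold in either direction. Grin2a, Grin2b, Gabrb1, Grm4, Gabra6, Gabrg3 and Gabrq lie beyond 3-fold lower in the 34 °C experiment and none beyond 3-fold higher.

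In all, 7 of 39 receptor genes were more than 3-fold lower in the 34 °C experiment (17.9%), among 504 of 13259 genes (3.80%), and 0 were more than 3-fold higher, against 373 genes. Grik5 was the other way, at 89.4 CPM on average in the 10 °C experiment and 248 CPM in the 34 °C experiment. Levels of Grin2a, Grin2b and Gabrb1 in the spinal cord were 6.75 to 8.47, 12.2 to 15.9 and 17.6 to 22.4 CPM at 22 °C. The 22 °C brain of the 34 °C experiment had 16.6 to 21.1, 64.1 to 85.9 and 18.2 to 24.4 CPM. Against it the spinal cord was lower in Grin2a and Grin2b and overlapped in Gabrb1, which was not tested. Against the brain of the 10 °C experiment, a difference in these genes cannot be told apart from one in library preparation.

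Other genes of both pathways were read from lists of synthesis, transport and partner genes. At 10 °C, 1 of 68 tested in the hypothalamus passed the limits of the study (0.578% of all genes), Slc17a7, the vesicular glutamate transporter of the cortex (log2 fold change 1.38, edgeR adjusted p = 0.80), and none of 67 did in the brain or of 68 in the spinal cord. At 34 °C 1 of 67 did (0.193% of all genes), the glycine receptor gene Glra1 (-0.94, edgeR adjusted p = 0.9997). Slc17a7 averaged 2.31 CPM ± 0.941 (SD, n = 3) at 22 °C and 6.23 CPM ± 6.58 (n = 3) at 10 °C, and 1 hypothalamus library at 10 °C, replicate 3, held 23.7 CPM of the cortical markers in sum, against 9.91 to 12.6 CPM in the other 5. This sum includes Slc17a7 itself.

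Between hypothalamus and brain at 22 °C, 4 of 9 genes for GABA synthesis, vesicular loading, uptake and breakdown were higher and 3 lower at an adjusted p under 0.05 (edgeR), the limit used for each of these lists, at which 36% of all genes were higher and 34% lower. The GABA-producing enzymes parted, with Gad1 lower (509 CPM ± 22.8 in the brain and 290 CPM ± 13.8 in the hypothalamus, log2 fold change -0.81) and Gad2 higher (172 CPM ± 11.9 and 316 CPM ± 12.3, 0.88), and the transporter Slc6a11 was higher (1.48). Of 11 glutamate genes, 3 were higher and 7 lower. Slc17a7 was at 725 CPM ± 49.8 in the brain and 2.24 CPM ± 0.911 in the hypothalamus (-8.31), and Slc17a6, the transporter of subcortical glutamate neurons, was higher (0.90).

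Of 13 tested GABA receptor partners and chloride transporters, 5 were higher and 4 lower, with Shisa7 at 0.69 and the potassium chloride transporter Slc12a5 at 0.24 on the log2 scale. Of 28 glutamate receptor partners, 4 were higher and 22 lower, with a median of -0.74, against 0.01 for all genes, and Homer1 (-1.77) and the AMPA auxiliary subunit Cacng3 (-1.71) among the lower ones. Of 7 glycine and delta receptor genes, 6 were higher and 1 lower, with Glra2 at 1.21.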

How the data were processed

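RNA-seq libraries were taken from brain, hypothalamus and spinal cord. The deposited values are read counts per gene that the authors made with STAR against mm10 and HTSeq (the submitters' notes give STAR 2.5.3a and HTSeq 0.6p1), and the strand setting of the counting was not given in the sources used here. Of 21647 Ensembl identifiers, 21583 were matched to symbols. The receptor genes and the lists of other genes were chosen with earlier results of these data known. Counts were normalised by TMM and those genes whose average log2 CPM exceeded 0 entered edgeR 4.0.16 (R 4.3.3) with the quasi-likelihood F-test, within each table, over only the 2 groups compared, or over all 4 for the interaction. The study used edgeR's exact test, tried here with DESeq2 1.42.0, other filters and scalings, a replicate block and each library left out. The scripts were tested on simulated data. Temperature calls needed a fold above 1.5 with an unadjusted p up to 0.05, tissue and interaction at an adjusted p under 0.05. Named genes were, per temperature comparison, those with an unadjusted p up to 0.05 or the 6 with the smallest p, between tissues the 8 called genes with the largest fold in each direction, in the interaction the 3 with the smallest p, and 16 main subunits, while other genes were named after their values were seen. Lengths are GENCODE M21 exon lengths for every set of libraries, also where the counts came with gene symbols. The p-values measure the spread between libraries, which for brain and hypothalamus are pools. The floor of 3 counts covers counting error only. Grin3b shares 32.1% of its exon bases with Tmem259 and Grin1 13.5% with an antisense gene. Some receptor and marker genes are counted but not reported here by name.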

Additional observations from a re-analysis of the deposited data

Results flagged for a closer look

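Of 74 groups of 5 spinal cord libraries examined, 1 for each gene reported and temperature, 9 held a library far from the other 4 by Dixon's test, where chance gives about 1 in 20. The 10 °C replicate 4 library gave 7 of the 9. In it Gabbr1 at 580 CPM (others 611 to 621) and Gabra3 at 122 CPM (166 to 181) were lower, while Grin1 at 479 CPM (373 to 401), Grin2c at 41.2 CPM (26.5 to 27.5), Grin2d at 50.4 CPM (31.4 to 34.6), Grik5 at 130.0 CPM (93.0 to 103) and Grm4 at 40.3 CPM (28.6 to 30.4) were higher. This library had the fewest reads of the spinal cord set (21953207) and the lowest sum of oligodendrocyte markers (23700 CPM, against 28630 to 35560 CPM in the other 9), and the part of either was not tested. At 22 °C, Gabbr1 was lower in replicate 3 (582 CPM, others 624 to 640) and Grin1 higher in replicate 2 (413 CPM, others 364 to 374). With any 1 of the 10 libraries left out, the spinal cord still gave 0 receptor genes at the limits of the study.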

How the results depend on the processing

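At 10 °C and 34 °C the count of called receptor genes was 0 in every comparison with the exact test, DESeq2 and library size scaling. With filterByExpr or the lowest filter, 1 gene was called in the brain at 10 °C (Gabrr1, 5 reads at 22 °C and 33 at 10 °C) and 1 in the brain at 34 °C (Gabre, 136 and 58 reads), and with the lowest filter 1 in the hypothalamus (Gabra6, 8 and 27 reads). With each library left out in turn the counts ranged from 0 to 0 in the brain and spinal cord at 10 °C, from 0 to 1 in the hypothalamus (Gabrd, without 22 °C replicate 2) and from 0 to 2 at 34 °C (2, Gabra6 and Grin2b, without 22 °C replicate 3, and 1, Grin2b, without 34 °C replicate 3). The median log2 fold change of the hypothalamus ranged from -0.0094 to 0.0265 and that of the spinal cord from -0.033 to 0.0153. Between tissues, a fold above 1.5 with an unadjusted p of at most 0.05 gave 19 genes at 22 °C, 18 at 10 °C and 1 in the interaction (Gabra6). With the 22 °C brain replicate 2 kept, the count at an adjusted p under 0.05 fell from 33 to 17 at 22 °C, that of all genes from 70% to 34.6%, and Gabbr1 turned to 0.0381. Leaving out libraries gave 28 (without the 22 °C brain replicate 1) to 34 genes at 22 °C and 35 to 37 at 10 °C. Gabbr2 at 10 °C turned to 0.0155 with library size scaling. The cause was not tested. Whether replicate numbers pair the samples could not be settled with so few libraries per group. Correlations of deviations between same-numbered libraries ran from -0.17 to 0.20 in the hypothalamus and from -0.14 to 0.15 in the spinal cord. Between same-numbered brain and hypothalamus libraries they ran from -0.07 to 0.12 over both temperatures. With a replicate block the counts were 0 in each 10 °C comparison and in the interaction, 32 at 22 °C and 36 at 10 °C between tissues. No block was run at 34 °C, since the numbers of those columns could not be matched to the sample titles. The exact test was not run for the interaction. Depth limits Gabrd and Gabra6 in the hypothalamus, Gabre in the brain and Gabrr1, Gabrr3, Gabrp, Grm6 and Grin3b, most of which were not tested.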

Other observations

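Outside the nervous system at 22 °C, some receptor genes were read above 1 CPM (by library size, mean over 3 libraries, or 6 in quadriceps and bone marrow): 25 of 45 in perigonadal fat (pgVAT), 17 in ileum, 14 in spleen, 12 in inguinal fat (ingSAT), 8 in brown fat (iBAT), 7 in liver, 4 in bone marrow and 2 in quadriceps, against 38 in brain, 39 in hypothalamus and 40 in spinal cord. Gabbr1 led in ileum, spleen, both white fats, quadriceps and bone marrow, with 57.7 CPM ± 5.96 (SD, n = 6) in bone marrow. In liver Gabbr2 led with 20.4 CPM ± 0.820 (n = 3) while Gabbr1 was at 4.03 CPM ± 0.863.

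Spleen held Gabra3 at 20.4 CPM ± 1.92, Gabrq at 18.6 CPM ± 2.14 and Grin2c at 12.9 CPM ± 3.05 (n = 3), the Gabrq value being above the 8.66 CPM ± 1.45 (n = 2) of the brain. Bone marrow held Gria3 at 43.3 CPM ± 2.89 (n = 6). Grin2b was at 30.2 CPM ± 16.3 in perigonadal fat, with a range from 18.4 to 48.9 CPM, and at 15.7 CPM ± 2.22 in inguinal fat, against 582 CPM ± 58.2 in the brain. These values come from tables scaled separately, were not tested between tissues and do not show that a receptor is made.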
